A study of Homo sapiens with 27 samples.

Results

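TRiC, also called CCT, is the chaperonin of the cytosol, and its subunits are encoded by 8 genes: TCP1, CCT2, CCT3, CCT4, CCT5, CCT6A, CCT7 and CCT8. The members were given by these gene symbols, and each of the 8 was matched to an identifier among the 57905 genes measured by RNA-seq. U937 is a human myeloid leukemia cell line, and matrine is an alkaloid from the plant Sophora flavescens. The study asked how matrine changes gene expression in such cells, with c-Myc as its main interest. The treated U937 cells had matrine at 0.8 mg/ml, for either 30 min or 24 h, and control cells had none, with 3 libraries in each group and 9 in all. Per the study's methods water was the vehicle for matrine. The culture time of the control cells is not given in the sources used here, so time in culture cannot be told apart from 24 h of matrine. Nothing in the labels says that the 3 libraries of a group came from separate cultures, and the p-values below measure the spread between these libraries. The series holds 27 samples, and those of the other cell lines, HL-60 and K562, were not analysed here.

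TRiC is a barrel of stacked rings in which each subunit type has a fixed place. Newly made proteins enter the barrel and fold there as ATP is used, and actin and tubulin are the best known of its substrates. Prefoldin, a separate chaperone, hands unfolded actin and tubulin to TRiC, phosducin-like proteins bind TRiC and adjust its work on substrates, and HSP70 passes other clients on. Growing cells need much of it, since cytoskeletal and cell cycle proteins depend on it.

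The 8 genes lie on 7 chromosomes, with CCT4 and CCT7 both on chromosome 2. Promoter windows of RefSeq (GRCh38.p14, from 250 bases before to 50 bases after a start) were given for 7 of the 8 subunits, CCT6A being the one without an entry, and 9 windows in all matched. The stretches shown here belong to the subunits whose mRNA changed most at 24 h (TCP1, CCT3 and CCT2) and least (CCT8), so that the upstream sequence at both ends of the range can be read. Each is the longest run before the RefSeq start that holds no annotated exon of GENCODE 44, written 5′ to 3′ on the strand of the gene. Capitals mark the CCAAT letters, the motif CCGGAA of ETS factors and the motif GGGCGG of GC boxes, on either strand.
TCP1: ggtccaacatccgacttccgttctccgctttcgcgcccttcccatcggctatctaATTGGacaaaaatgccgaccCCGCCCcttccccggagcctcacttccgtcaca
CCT3: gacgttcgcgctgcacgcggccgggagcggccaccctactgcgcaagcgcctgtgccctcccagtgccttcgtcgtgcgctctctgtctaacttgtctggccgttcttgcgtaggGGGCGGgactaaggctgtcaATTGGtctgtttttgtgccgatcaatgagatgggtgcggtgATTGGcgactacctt
CCT2: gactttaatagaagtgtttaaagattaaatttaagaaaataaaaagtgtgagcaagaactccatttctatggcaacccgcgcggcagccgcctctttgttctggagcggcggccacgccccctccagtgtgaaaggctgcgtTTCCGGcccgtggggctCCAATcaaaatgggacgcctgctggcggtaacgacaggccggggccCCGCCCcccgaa
CCT8: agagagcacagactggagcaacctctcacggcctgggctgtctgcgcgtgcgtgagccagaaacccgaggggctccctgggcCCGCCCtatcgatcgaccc
The stretch of TCP1 is chr6:159789704-159789811 on the minus strand, and that of CCT3 is chr1:156338312-156338502 on the minus strand. The stretch of CCT2 is chr12:69585209-69585425 on the plus strand, and that of CCT8 is chr21:29073798-29073898 on the minus strand. In the full windows, searched on both strands, CCAAT was held by 4 of 7 subunits (TCP1, CCT2, CCT3 and CCT8). Counted by window it was in 4 of 9, against 34.6% of all 35116 windows given. In CCT8 the CCAAT letters begin 63 bases before the RefSeq start, outside the stretch shown. GGGCGG was held by 5 of 7 subunits and 6 of 9 windows (45.0% of all windows). CCGGAA was held by 2 of 7 subunits, CCT2 and CCT5, and 2 of 9 windows (17.2%). GAANNTTC, letters found in heat shock elements, was held by 2 of 7 subunits, CCT2 and TCP1, and 2 of 9 windows (6.8%). CACGTG, the E-box that c-Myc and MAX can bind, was in 0 of 7 (7.3% of all windows), which says only that these letters are not in these windows. A match is a description of the letters and not of a bound site. The windows of CCT3, CCT5 and CCT7, and the second window of CCT2, which alone gives CCT2 its GAANNTTC match, lie inside the span that GENCODE gives the gene, at a later start than the outermost one.

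The libraries held between 17314931 and 21930018 counts in genes, and no library was a copy of another. The cell line label was set against marker genes. In control cells 7 of 10 genes of the monocytic lineage list were above 1 FPKM (fragments scaled by transcript length and library size), among them LYZ and SPI1, and 4 of 5 granule genes were too, while CD14, CSF1R and CD68 were below 1. Of other cell types, HBG1 (erythroid) and CD3E, CD3D and MS4A1 (lymphoid) were listed at 0, and 0 of 5 epithelial or fibroblast genes reached 1 FPKM in control cells. The summed level of the monocytic list ranged from 447.5 to 451.1 FPKM in control cells and from 394.3 to 403.1 FPKM at 24 h, and that of the granule list from 2235 to 2638 and from 2705 to 2866 FPKM. Their part in the results below was not tested.

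TRiC mRNA was abundant in control U937 cells. The 8 subunits summed to 1250 ± 15.5 FPKM (SD, n = 3), or 0.490% of all counts, and their levels spanned a 2.46-fold range. CCT4 had the highest level at 220.4 ± 4.58 FPKM, and CCT2 the lowest at 89.6 ± 1.01 FPKM. Between them stood CCT3 (191.5 FPKM), CCT6A (190.7), CCT8 (174.5), CCT7 (145.9), TCP1 (129.6) and CCT5 (107.4). In this order the libraries of neighbours did not overlap except for CCT3 and CCT6A, whose levels did not differ beyond their spread. Counts were deep for every subunit, from 4101 (CCT2 in a 24 h library) to 17922 (CCT3 in a 30 min library).

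After 24 h of matrine the mRNA of all 8 subunits fell, by 1.69-fold (CCT8) to 2.15-fold (TCP1). A gene was called when edgeR's quasi-likelihood test gave an adjusted p under 0.05 and the fold change was at least 1.5, and 11.6% of the 12035 genes tested were called lower. Among the 983 genes with a mean above 50 FPKM, a group chosen after the values were seen, the share was 17.8%. The median log2 fold change of the 8 subunits was -0.88, and that of all genes tested was -0.01. These are bulk libraries scaled to their totals, in which fewer cells of a type and less RNA per cell cannot be told apart.

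TCP1, the subunit that gave the complex its name, changed most. Its level was 129.6, 132.1 and 127.2 FPKM in the control libraries and 64.5, 64.2 and 60.6 FPKM at 24 h. All 3 libraries at 24 h lay far below the lowest control library, and the log2 fold change was -1.10 ± 0.053 (SE; adjusted p = 5.5e-13, edgeR). CCT3 was next, with 187.8, 195.3 and 191.5 FPKM in control and 92.1, 92.7 and 97.2 FPKM at 24 h. Its log2 fold change of -1.09 ± 0.052 (adjusted p = 4.5e-13, edgeR) had a 95% confidence interval of -1.20 to -0.98, close to that of TCP1 (-1.21 to -0.99). TCP1 and CCT3 were the 2 of 8 subunits that fell at least 2-fold, as 3.12% of all genes tested did. With quantile normalization neither reached 2-fold (TCP1 -0.96, CCT3 -0.95), and without a filter on low values CCT2 did too (-1.02).

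CCT2 and CCT6A fell by somewhat less. CCT2 went from 90.7, 89.5 and 88.7 FPKM to 48.3, 46.6 and 48.8 FPKM, with a log2 fold change of -0.97 ± 0.054 (adjusted p = 4.8e-12, edgeR). CCT6A, the widely expressed form of the zeta subunit, went from 195.8, 187.8 and 188.6 FPKM to 106.7, 107.9 and 108.8 FPKM, with a log2 fold change of -0.89 ± 0.051 (adjusted p = 8.6e-12, edgeR). The libraries at 24 h again lay close together, and none reached the control range. CCT4, the most abundant, had 218.5, 225.7 and 217.1 FPKM in control and 125.8, 122.2 and 126.8 FPKM at 24 h, a log2 fold change of -0.88 ± 0.053 (adjusted p = 1.5e-11, edgeR).

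CCT7, CCT5 and CCT8 changed least. CCT7 went from 142.3, 150.6 and 144.7 FPKM to 83.3, 83.4 and 86.5 FPKM, a log2 fold change of -0.85 ± 0.052 (adjusted p = 1.9e-11, edgeR). CCT5 went from 105.5, 109.2 and 107.6 FPKM to 64.7, 63.0 and 66.6 FPKM, a log2 fold change of -0.79 ± 0.051 (adjusted p = 3.7e-11, edgeR). CCT8 went from 175.4, 176.8 and 171.4 FPKM to 105.4, 110.2 and 108.2 FPKM, a log2 fold change of -0.76 ± 0.054 (adjusted p = 1.8e-10, edgeR). For every one of the 8 subunits the 24 h libraries stood below all control libraries without overlap, as they did for 31% of all genes tested. An exact permutation test of 3 libraries against 3 cannot give a two-sided p under 0.1, so the test above draws on the spread shared across genes.

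**Figure D1:**
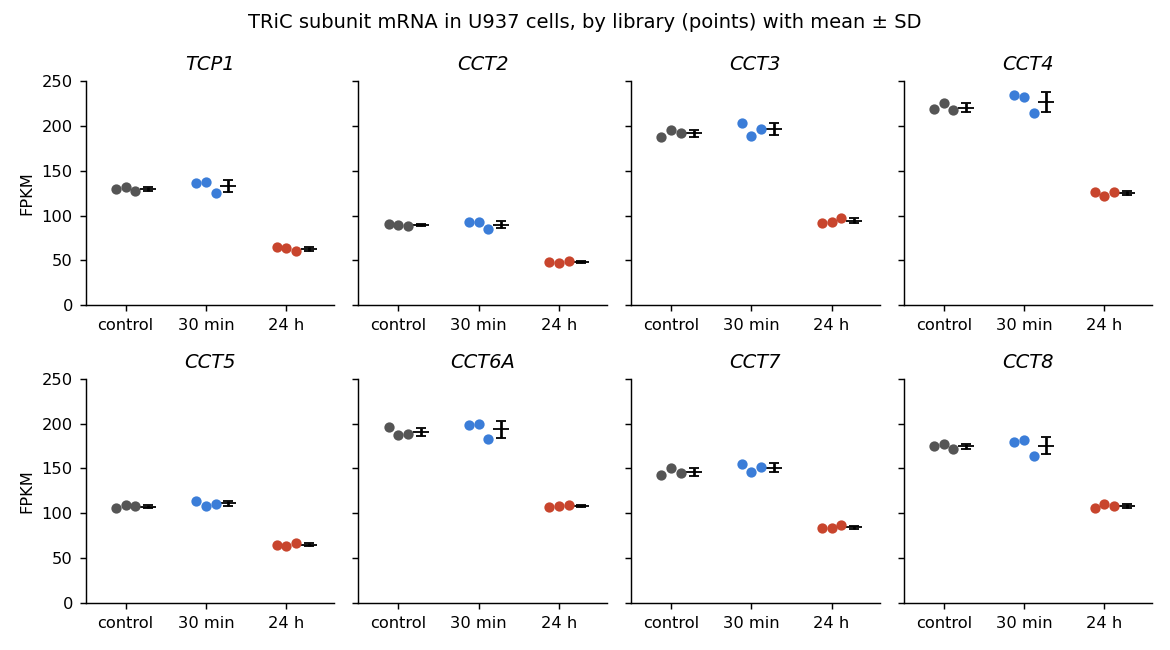
FPKM (vertical axis) of each TRiC subunit in the 9 U937 libraries, as points for control, matrine 30 min and matrine 24 h, with the mean ± SD of the 3 libraries of a group beside them. The 24 h points lie below all other points in each of the 8 panels, from 46.6 FPKM (lowest, CCT2) to 126.8 FPKM (highest, CCT4).

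At 30 min no subunit was called. The log2 fold changes against control ran from 0.02 (CCT2) to 0.06 (CCT7), with standard errors near 0.05, and the adjusted p-values of edgeR ran from 0.74 to 0.95. The count was also 0 of 8 at an unadjusted p under 0.05, and 0 of 8 with DESeq2 and limma. Of all 11587 genes tested at this time, 0.639% were called in either direction. CCT4 read 234.2, 232.3 and 214.0 FPKM at 30 min, around its control values, and the 95% confidence interval of its log2 fold change was -0.06 to 0.16. TCP1 read 136.0, 137.8 and 125.6 FPKM, CCT6A 198.2, 199.4 and 183.0 FPKM, and CCT8 179.8, 182.2 and 164.3 FPKM.

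For most subunits the 30 min libraries spread more than those of the other groups, in a pattern that split the subunits. In TCP1, CCT2, CCT4, CCT6A and CCT8 the library of replicate 3 was the lowest, and the 3 libraries ranged over 0.12 to 0.15 on the log2 scale. In CCT3, CCT5 and CCT7 the lowest was instead the library of replicate 2. CCT3 read 203.4, 189.2 and 196.9 FPKM, CCT5 114.2, 108.2 and 110.6 FPKM, and CCT7 155.2, 145.8 and 152.0 FPKM. The main transcripts of these 3 genes have a GC content of 50.6%, 44.5% and 51.6%, and those of the other 5 lie between 41.5% and 42.9%. In the control group the library of replicate 1 was lowest for the same 3 genes. The part of GC content in this spread was not tested.

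Set against 30 min in place of control, the 24 h libraries gave values close to those against control. All 8 subunits were called lower, beside 11.3% of the 11981 genes tested. The log2 fold changes ran from -0.77 ± 0.054 (CCT8; adjusted p = 1.3e-10, edgeR) to -1.15 ± 0.053 (TCP1; adjusted p = 2.8e-13, edgeR), with a median of -0.93. TCP1 and CCT3 fell at least 2-fold here too, as 2.84% of all genes did, though not with quantile normalization, and the 24 h libraries lay below all 30 min libraries for each of the 8 subunits and for 28.6% of all genes. This comparison shares its 24 h libraries with the one against control.

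**Figure D2:**
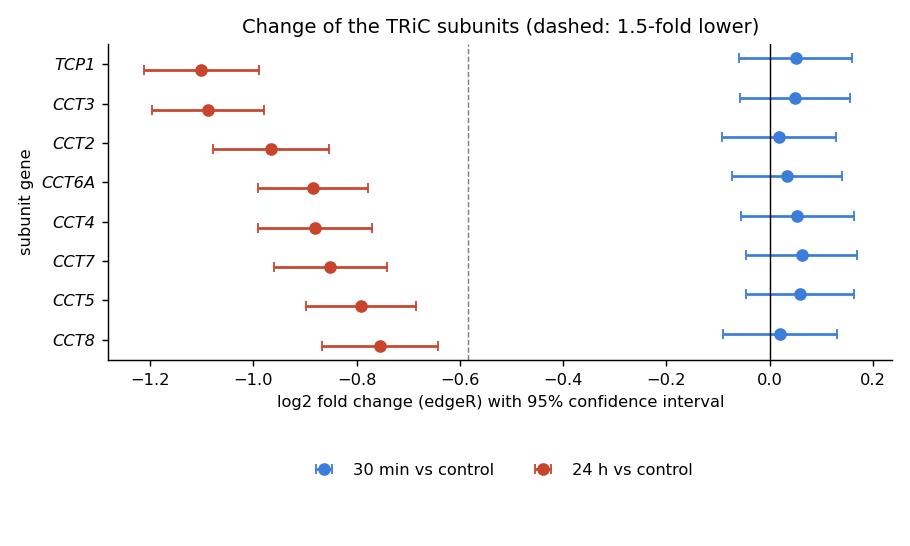
Log2 fold change against control (horizontal axis, edgeR) of each subunit at 30 min (blue) and 24 h (red), with 95% confidence intervals and a dashed line at a 1.5-fold decrease. The 30 min intervals hold 0 for all 8 subunits, and the 24 h intervals all lie beyond the dashed line.

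The subunits fell together but not by the same factor, and the make-up of the TRiC mRNA pool shifted. The sum of the 8 subunits was 694.8 ± 7.47 FPKM at 24 h, or 55.6% of control, and 1277 ± 41.8 FPKM at 30 min. Within that sum the share of CCT3 was 15.3% ± 0.217 in control and 13.5% ± 0.251 at 24 h (SD, n = 3), and that of TCP1 was 10.4% ± 0.075 and 9.08% ± 0.407. Both shares were below the control range in 3 of 3 libraries, and so was that of CCT2 (7.17% and 6.90%). The share of CCT8 was 14.0% ± 0.112 in control and 15.5% ± 0.378 at 24 h, that of CCT5 8.60% and 9.32%, and that of CCT7 11.7% and 12.2%, all above the control range in 3 of 3 libraries. For CCT4 and CCT6A the groups overlapped. At 30 min the shares of all 8 subunits overlapped those of control. The 24 h shares of CCT7 lay inside its 30 min range, and those of CCT2 overlapped its 30 min range. Shares sum to 100%, so a lower share of some subunits raises the others.

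Ratios between subunits do not depend on the scaling of a library. The log2 ratio of TCP1 to CCT8 was -0.43 ± 0.008 in control (SD, n = 3), -0.40 ± 0.009 at 30 min and -0.78 ± 0.065 at 24 h. The log2 ratio of CCT3 to CCT5 was 0.83 ± 0.004, 0.82 ± 0.016 and 0.54 ± 0.025. Both pairs were chosen after their values were seen and are given without a test. The order of levels moved with these ratios. At 24 h CCT4 was still the highest and CCT2 the lowest, over a 2.61-fold range, but CCT3 stood below CCT8 and CCT6A, and TCP1 no longer stood above CCT5. CCT8 and CCT6A overlapped (107.9 and 107.8 FPKM on average), as did CCT5 and TCP1 (64.8 and 63.1 FPKM).

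**Figure D3:**
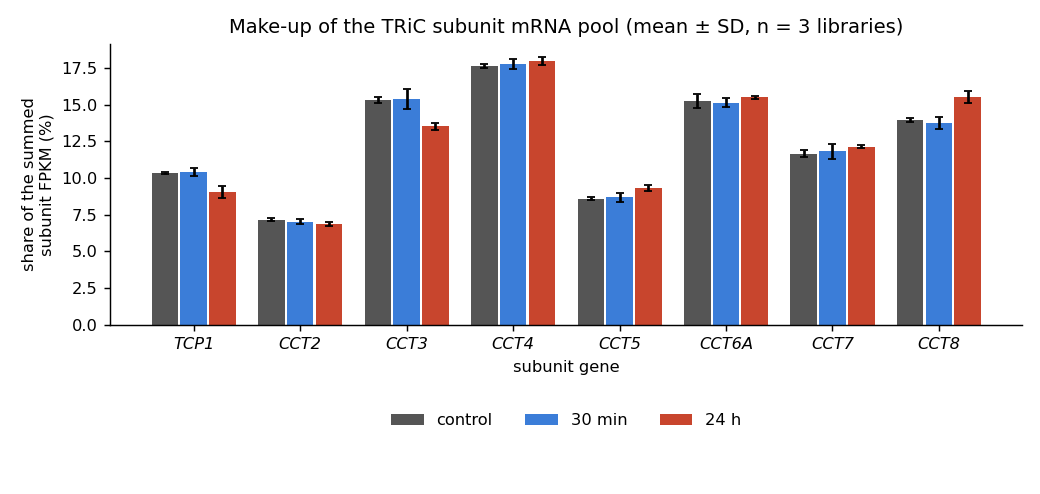
Share of each subunit in the summed FPKM of the 8 subunits (vertical axis, %), as mean ± SD of 3 libraries for control, 30 min and 24 h. The bars of TCP1 and CCT3 are lower at 24 h, and that of CCT8 is higher at 15.5% against 14.0% in control.

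Many of the subunit genes start back to back with another gene, which allowed a comparison inside the same stretch of DNA. In GENCODE 44 (GRCh38), 5 subunits have a protein-coding gene on the other strand whose start lies within 1000 bases of theirs. MRPL18, a protein of the mitochondrial ribosome, starts 109 bases from TCP1. It read 64.1, 68.5 and 60.8 FPKM in control and 68.1, 66.0 and 63.6 FPKM at 24 h, with a log2 fold change of -0.03 ± 0.068 (adjusted p = 0.7, edgeR). COMMD1, a protein of copper handling and endosomal sorting, starts 53 bases from CCT4, and PSPH, the last enzyme of serine synthesis, starts 81 bases from CCT6A. COMMD1 was at 102% ± 12.4 of its control mean at 24 h (SD, n = 3) and PSPH at 98.5% ± 1.56, and their groups overlapped. ATPSCKMT, a methyltransferase of a mitochondrial ATP synthase subunit, starts 32 bases from CCT5 and was at 94.8% ± 3.26. PRADC1, 181 bases from CCT7, was at 123% ± 9.56, with a log2 fold change of 0.23 (adjusted p = 0.054, edgeR). The libraries of PRADC1 at 24 h lay above those of control. None of the 5 partners was called in either direction at 24 h by edgeR, where 26.4% of all genes tested were, and the sign of MRPL18 and COMMD1 changed in 6 of 16 alternative fits each.

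The ratio within each pair compares the genes directly. The log2 ratio of subunit to partner was lower at 24 h than in control in 5 of 5 pairs, with no overlap of libraries. These ratios restate the changes given above. A subunit that fell would give a lower ratio to any gene that kept its level. The difference was -1.07 for TCP1 and MRPL18, -0.84 for CCT4 and COMMD1, -0.66 for CCT5 and ATPSCKMT, -0.80 for CCT6A and PSPH, and -1.08 for CCT7 and PRADC1. Each had an exact two-sided permutation p of 0.1, which is the smallest that 3 libraries against 3 can give, and p-values of 0.1 stay at 0.1 after adjustment over the 5 pairs. CCT2 has only the microRNA gene MIR3913-1 in this range, listed at 0.

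**Figure D4:**
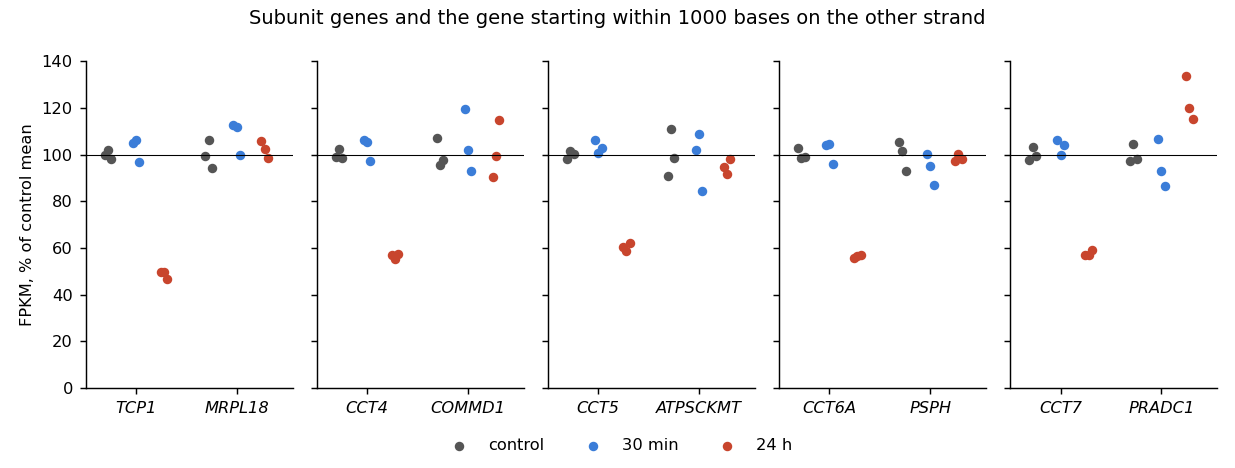
FPKM as % of the control mean (vertical axis) for 5 subunits and the gene that starts within 1000 bases on the other strand, as points per library for control, 30 min and 24 h. At 24 h the subunits lie between 46.7% and 62.0% of control, and their partners between 90.3% and 133.6%.

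Of the 6 other genes next to a subunit that were tested, 1 was called higher and 1 lower, near the 26.4% of all genes called in either direction. ACAT2, a cytosolic enzyme of sterol synthesis on the other side of TCP1, read 28.4, 29.4 and 27.3 FPKM in control and 171.8, 164.1 and 172.1 FPKM at 24 h. Its log2 fold change was 2.52 ± 0.062 (adjusted p = 8.2e-18, edgeR), and 14.7% of genes tested were called higher. The exons of ACAT2 and TCP1 overlap by 454 bases on opposite strands. Exons of long non-coding RNA genes also overlap those of CCT5 (1734 bases), CCT4 (275 and 181) and CCT8 (85) on opposite strands. The strand setting of the counting is not given in the sources used here, so reads in these overlaps cannot be told apart. FBXO41, next to CCT7, was lower (log2 fold change -0.85, adjusted p = 6.3e-09, edgeR). SUMF2, next to CCT6A, had a log2 fold change of 0.47, and FRS2, FAM161A and USP16 had values of 0.02, -0.30 and -0.14, none of them called. TSACC, which lies within the span of CCT3, read 1.03 FPKM in control and 0.63 FPKM at 24 h and was too low to be tested.

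Among the cochaperones that work with TRiC, prefoldin was lower in part. Of its 6 subunits 3 were called lower at 24 h and 0 higher, beside 11.6% lower and 14.7% higher among all genes tested, and the median log2 fold change was -0.55. PFDN2, the most abundant, read 165.0, 193.2 and 166.6 FPKM in control and 109.1, 113.7 and 114.6 FPKM at 24 h (log2 fold change -0.70 ± 0.071, adjusted p = 3.2e-08, edgeR). PFDN6 (-0.76) and PFDN4 (-0.75) were the other 2 called. Of the rest, PFDN1 and VBP1 had log2 fold changes of -0.39 and -0.34, under the fold threshold, and PFDN5 had 0.21. PFDN2 was under the fold threshold with quantile normalization (log2 fold change -0.55).

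The phosducin-like proteins did not reach the fold threshold, with 0 of 3 called by edgeR at 24 h. All 3 had an adjusted p under 0.05 (edgeR) at a smaller fold. Among all genes tested 26.4% were called in either direction, and 63.4% had an adjusted p under 0.05 at any fold. TXNDC9 and PDCL3 had log2 fold changes of -0.38 and -0.35, and PDCL, which helps TRiC assemble G protein beta subunits, had 0.30. PDCL2 was listed at 0. Of the chaperonin-like proteins of the Bardet-Biedl complex, which join TRiC to build the BBSome, MKKS (-0.31) and BBS10 (-0.01) were not called, and BBS12 was too low to be tested.

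HSP70 and its partners were lower in 4 of 5 members, beside 11.6% of all genes tested and 17.8% of those above 50 FPKM. HSPA8, the constitutive HSP70, read 398.0, 384.0 and 380.2 FPKM in control and 142.1, 138.6 and 144.2 FPKM at 24 h. Its log2 fold change was -1.51 ± 0.049 (adjusted p = 9.4e-16, edgeR), larger than that of any TRiC subunit. HSPH1 (-1.18) and HSPA4 (-0.75), which exchange the nucleotide of HSP70, fell too, and so did the exchange factor HSPBP1 (-0.67). HSPBP1 was under the fold threshold with quantile normalization and without the control library of replicate 2 (lowest of its alternatives in size, -0.54). BAG3 had a log2 fold change of 0.09.

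The mitochondrial chaperonin, which has the same fold as TRiC but sits in the matrix, fell in both of its members, beside 11.6% of all genes tested that were called lower. HSPD1 read 454.3, 437.9 and 438.4 FPKM in control and 206.7, 204.4 and 205.3 FPKM at 24 h, a log2 fold change of -1.17 ± 0.049 (adjusted p = 5.8e-14, edgeR). HSPE1, its lid, went from 191.2 ± 6.83 to 93.9 ± 2.63 FPKM (SD, n = 3), a log2 fold change of -1.09 (adjusted p = 2.7e-12, edgeR). At 30 min no member of these lists was called.

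For the mRNAs of the main substrates the medians lay nearer to 0 than that of TRiC. Of 6 actin and actin-related genes 0 were called by edgeR at 24 h, beside 26.4% of all genes tested called in either direction. The median log2 fold change of the 6 was -0.10. An adjusted p under 0.05 (edgeR) at a smaller fold was seen in 4 of the 6, as in 63.4% of all genes tested at any fold. ACTB, cytoplasmic beta-actin, read 1727, 1916 and 1734 FPKM in control and 1669, 1675 and 1695 FPKM at 24 h, with a log2 fold change of -0.16 (adjusted p = 0.016, edgeR). ACTG1 (-0.06) and ACTR2 (0.01) were near 0, and their sign changed in 5 and 4 of 16 alternative fits.

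Of 9 tubulin genes tested 0 were called lower and 1 higher, beside 11.6% lower and 14.7% higher among all genes tested. The median log2 fold change of the 9 was -0.27. An adjusted p under 0.05 at any fold (edgeR) was seen in 7 of the 9, as in 63.4% of all genes tested. The gene called was TUBA1A, an alpha-tubulin, which read 10.0, 9.66 and 8.95 FPKM in control and 136.8, 131.8 and 126.5 FPKM at 24 h (log2 fold change 3.72 ± 0.065, adjusted p = 4.9e-20, edgeR). TUBA1A shares most of its coding sequence with TUBA1B and TUBA1C, and how reads that match several genes were counted is not given in the sources used here. TUBA1B, the most abundant alpha-tubulin, had a log2 fold change of 0.03, and TUBB and TUBB4B, the most abundant beta-tubulins, had -0.23 and -0.32. TUBA4A, at -0.55, was just short of the fold threshold. Of the 5 tubulin folding cofactors tested, which act after TRiC to form the alpha and beta dimer, 0 were called by edgeR. The share of all genes tested called in either direction was 26.4%. Of the cofactors 3 had an adjusted p under 0.05 at a smaller fold, with TBCA at -0.38 and TBCC at 0.37. TBCE was not matched in the table.

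Among 12 WD repeat proteins, a fold that TRiC helps to form, 2 were called lower and 0 higher at 24 h, with a median of -0.29. The share called lower was near the 11.6% of all genes tested. EIF3I, a subunit of a translation initiation factor, went from 179.0 ± 3.23 to 116.7 ± 3.22 FPKM (log2 fold change -0.68, adjusted p = 1.3e-09, edgeR), and was under the fold threshold with quantile normalization (-0.51). CDC20, an activator of the anaphase-promoting complex, had a log2 fold change of -0.59 (adjusted p = 1.5e-08, edgeR), at the edge of the fold threshold, and was called in 5 of 16 alternative fits. GNB1 and GNB2, G protein beta subunits, had -0.06 and 0.03, and their sign changed in 5 and 4 of 16 alternative fits. Of 9 other substrates few were called, near the 11.6% lower and 14.7% higher among all genes tested. The 1 lower was the mitotic kinase PLK1 (-0.71, adjusted p = 5.1e-10, edgeR), and the 2 higher were the transcription factor STAT3 (0.60, adjusted p = 8.5e-08, edgeR) and the BBSome subunit BBS2 (0.62, adjusted p = 1.1e-06, edgeR). PLK1 was lost with quantile normalization. STAT3 was called in 13 of 16 alternative fits and BBS2 in 12 of 15. STAT3 was lost without a filter on low values, without the control library of replicate 1 and without the 24 h library of replicate 1.

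**Figure D5:**
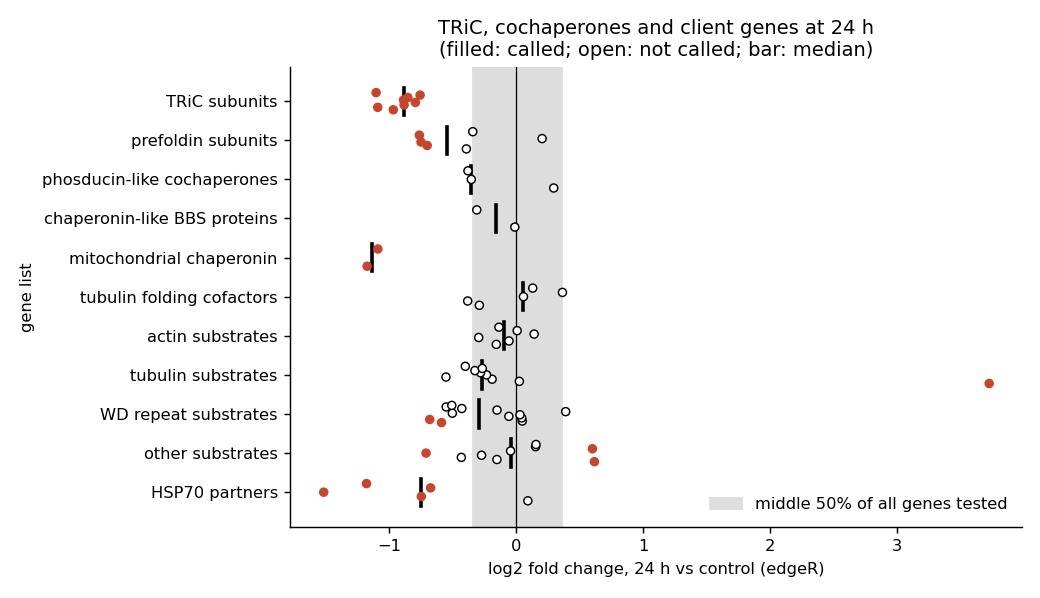
Log2 fold change at 24 h against control (horizontal axis, edgeR) of the genes tested in each list (rows), with filled points for genes called, open points for genes not called, and a bar at the list's median. The grey band holds the middle 50% of all genes tested; the 8 TRiC subunits lie left of it with a median of -0.88, and the actin and tubulin medians lie inside it.

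MYC, which encodes c-Myc, was called at both times, and the TRiC subunits only at 24 h. It read 204.3, 213.1 and 204.2 FPKM in control, 49.1, 55.1 and 58.0 FPKM at 30 min and 42.2, 46.1 and 43.1 FPKM at 24 h. Its log2 fold change was -1.93 at 30 min (adjusted p = 2.7e-14, edgeR) and -2.30 at 24 h (adjusted p = 3.5e-17, edgeR). At 30 min, when none of the subunits was called, 0.639% of all genes tested were called in either direction. Whether the fall of MYC had a part in that of the subunits was not tested. Of the other factors linked to TRiC genes, MAX, the partner of c-Myc, had log2 fold changes of 0.07 at 30 min and -0.12 at 24 h. HSF1 and HSF2, the heat shock factors, had -0.11 and -0.44 at 24 h, and SRF had -0.14, none of them called.

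Of the tissue-restricted relatives of TRiC only CCT6B was seen, at a low level. CCT6B, the form of the zeta subunit known from testis, read 0.61, 0.54 and 0.48 FPKM in control and 1.9, 1.8 and 2.01 FPKM at 24 h. CCT6B passed the filter on low values only through its 24 h libraries, so no test is given for it. Its level stayed far below the 107.8 FPKM of CCT6A, and its exons overlap those of LIG3 by 180 bases. CCT8L2 was listed at 0. Of 14 pseudogenes named after a subunit 3 were above 1 FPKM and were tested. CCT6P1 read 7.73 FPKM in control and 8.02 FPKM at 24 h and was not called (log2 fold change -0.01). CCT6P3 was higher (0.90, adjusted p = 9.7e-06, edgeR) and CCT8P1 was lower (-0.80, adjusted p = 0.0035, edgeR; not called by limma with a pseudocount of 1). Reads could be split between such copies and CCT6A or CCT8, so the values of the pseudogenes are uncertain, and their levels are small beside those of their parents.

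Genes were ranked by how near their profile over the 9 libraries lay to the median profile of the 8 subunits. The measure was the Euclidean distance between centred log2 CPM values (counts scaled to library size), over 11899 genes. CCT4 and CCT6A ranked 1 and 2 by this measure, CCT2 4, CCT7 12, CCT5 27, CCT8 111, CCT3 285 and TCP1 323. Since the reference is the median of the same subunits, these ranks restate their fold changes. The 10 nearest genes that are no subunits were DKC1, SAAL1, NOP56, BZW2, SF3B6, GOT2, CACYBP, NOP14, RCC1 and FAM136A. DKC1, the pseudouridine synthase of H/ACA ribonucleoproteins, was the nearest at a distance of 0.086, and went from 63.2 FPKM in control to 65.7 FPKM at 30 min and 36.8 FPKM at 24 h. NOP56, a core protein of box C/D ribonucleoproteins, went from 138.0 to 144.3 and 76.6 FPKM, and CACYBP, a cochaperone that binds S100 proteins, from 57.6 to 60.6 and 32.9 FPKM. The distances of the 10 genes ran up to 0.130 (FAM136A). They describe these 9 libraries and were not tested.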

How the data were processed

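RNA-seq counts and FPKM values of 9 U937 libraries (3 control, 3 matrine 30 min, 3 matrine 24 h) were analysed. The authors deposited raw counts per Ensembl gene and FPKM values (counts scaled by gene length and library size), made after trimming with cutadapt 1.9.1, mapping with HISAT2 2.0.1 and counting with HTSeq 0.6.1. The submitters' processing notes name GRCh37 and the study's methods name hg38, and the table holds no coordinates. Positions printed here are GRCh38, from GENCODE 44 and RefSeq. Which annotation release and strand setting were used, and how reads with several matches were treated, is not given in the sources used here. The methods name both poly(A) selection and rRNA removal. RNA levels of short or unpolyadenylated transcripts depend on which was used.

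Identifiers were matched to GENCODE 44 symbols for 51996 of 57905 genes. Counts of genes with a mean above 1 FPKM over the 6 libraries of a comparison were scaled by TMM over those genes and fitted over all 9 libraries with edgeR 4.0.16 (quasi-likelihood, R 4.3.3), with Benjamini-Hochberg adjustment over all genes tested. On simulated data the fit recovered 199 of 200 changed genes among 12030, with 1 false call. The simulation gave every gene the same spread and changed the 200 genes by at least 2-fold. It cannot show how the fit does on smaller changes or with the spread of these libraries. Alternatives used DESeq2 1.42.0, limma 3.58.1 on log2(FPKM + 0.1) or log2(FPKM + 1), other scalings, filters and fold thresholds, a replicate block, and fits without each library. Totals of 17314931 to 21930018 counts gave each subunit at least 4101 counts in every library. No pair of libraries in a group was close enough to be a single library deposited again.

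The 8 members, the gene lists and the motifs were chosen with earlier results of these data known. Genes named beside the subunits were list members that were called or had the 3 highest levels, genes next to a subunit or starting within 1000 bases on the other strand, pseudogenes above 1 FPKM and the 10 nearest profiles. Other list members and the pairs of subunits were named after their values were seen. HL-60 and K562 samples were not analysed here.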

Additional observations from a re-analysis of the deposited data

Results flagged for a closer look

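The level of all 8 TRiC subunits differed between the treatment times, which share their control libraries. As the culture time of the control cells is not given, time in culture cannot be told apart from 24 h of matrine. The difference was tested as 24 h against 30 min in the same edgeR fit. On the log2 scale it was -1.15 for TCP1, -1.14 for CCT3, -0.98 for CCT2 and -0.93 for CCT4. For CCT6A it was -0.92, for CCT7 -0.91, for CCT5 -0.85 and for CCT8 -0.77. Adjusted p-values of edgeR lay between 2.2e-13 and 1.3e-10. For each subunit 3 of 3 libraries at 24 h were below all 3 at 30 min, as for 28.6% of all genes tested. In this comparison 11.3% of all genes tested were called lower.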

How the results depend on the processing

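The decrease at 24 h against control kept its direction and its call in 128 of 128 values (8 subunits in 16 alternative fits), over a log2 range of -1.15 to -0.60. At a fold change of at least 2, 2 of 8 subunits were called against control and 2 of 8 against 30 min. The median of -0.88 was -0.82 with library totals alone, -0.94 without a filter and -0.80 with a filter at 5 FPKM. With limma it was -0.82 at a pseudocount of 0.1, -0.82 at 1, and -0.75 with quantile normalization. Scaling of the counts and quantile normalization were computed over the genes each setting kept. The other limma settings used the deposited FPKM values without further scaling. Leaving out each library in turn gave medians of -0.90 to -0.87. Against 30 min 127 of 128 values kept their call, the exception being CCT8 with quantile normalization (-0.58, under the fold threshold), which left 7 of 8 subunits. At 30 min 123 of 128 values kept their sign, and with quantile normalization 5 turned negative without being called: -0.0116 (TCP1), -0.0072 (CCT2), -0.0208 (CCT4), -0.0142 (CCT6A) and -0.0213 (CCT8). For these the cause was not tested. Of all calls at 24 h against control 44.1% were lower in the reported fit, 36.6% with library totals and 49.9% with quantile normalization. The libraries share replicate numbers. Deviations of same-numbered libraries correlated between -0.263 and 0.127, and own numbers did not correlate best throughout. These values show no pairing by number, but with 3 libraries per group they cannot exclude it. With a replicate block 8 subunits were called at 24 h, 0 at 30 min and 8 at 24 h against 30 min, and the median was -0.88. Depth did not limit the subunits, whose lowest count was 4101. It does limit CCT6B and the pseudogenes.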
